A study of Mus musculus with 12 samples.

Results

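The genes described here are 42 genes of the synapse: adhesion molecules that join the membranes of both sides, proteins of the synaptic vesicle and its release site, scaffolds under the receiving membrane, and secreted C1q-like proteins. Members were taken by symbol, and 41 of the 42 have a row among the 18180 genes measured, while Cntnap2 was not analysed here. The rule is a list of names and uses no measured value, but the list was drawn up with earlier results of these data known. The genes were followed in 12 bulk RNAseq libraries made from EGFR+ cells of 3 mouse GBMs (T3, T4 and T5), each sorted into PDGFRA+, PDGFRA-, GAL1+ and GAL1- cells, so that each population has 3 libraries, 1 from each tumor. All 4 populations share one background, given here in part: adult mice of mixed strain (C57Bl/6J, 129S4, FVBN/J and Balb/cJ) with a conditional human EGFR transgene, Cdkn2a-/- and a conditional luciferase reporter, in which a Cre lentivirus injected into the striatum started the tumor. Cells were taken from end-stage tumors with no drug treatment named for them, and stained for EGFR and for either PDGFR or Galectin-1. The PDGFRA and GAL1 sorts were separate stains of one tumor, so cells of the same kind can lie in PDGFRA+ and in GAL1- libraries.

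At a synapse, neurexins of the sending cell bind neuroligins, LRRTM proteins and other partners on the receiving cell, and these pairs decide where contacts form. Vesicles filled with transmitter are held near the active zone by large scaffold proteins and fuse through SNARE proteins when a synaptotagmin senses calcium. Neurons are the main users of these genes, but cells of the oligodendrocyte progenitor type also express many of them and receive synapses from neurons, and glioma cells can do so as well.

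The values are log2 CPM (reads of a gene scaled to the size of its library) as deposited. They are not divided by gene length, so levels are compared between libraries for 1 gene and not between genes. Recovered library sizes were 10768492 to 18522549 reads in PDGFRA+, 9851175 to 16516049 in PDGFRA-, 13788453 to 17486645 in GAL1+ and 21728280 to 24117541 in GAL1- libraries. Every one of the 41 genes had more than 3 reads in each library, the smallest count being 4 reads (Syt1, PDGFRA- of T5), and 4 genes (Syt1, Snap25, Cntn2 and C1ql2) had a library with fewer than 10 reads. The sort markers followed the GAL1 sort in RNA. Lgals1, which encodes GAL1, was 1.29 ± 0.22 (SE) lower on the log2 scale in GAL1- than in GAL1+ cells (limma adjusted p = 0.000967), while Pdgfra was 1.60 ± 0.41 (SE) higher in PDGFRA+ than in PDGFRA- cells without passing the test (limma adjusted p = 0.249). The sort was described as free of CD45+ cells in one place of the study and without that stain in another, and Ptprc, the CD45 gene, lay at 8.21, 8.74 and 9.00 log2 CPM in the GAL1+ libraries against 3.70, 5.18 and 4.94 in the GAL1- libraries.

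By their means, most synapse genes ran from GAL1- through PDGFRA+ and PDGFRA- down to GAL1+ cells, and only the steps to GAL1+ from GAL1- and from PDGFRA+ cells were passed by members in a test. The mean was lowest in GAL1+ cells for 39 of the 41 genes (95.1%, against 43% of all genes). It was highest in GAL1- cells for 38 (92.7%, against 39.5% of all genes). The full order GAL1- over PDGFRA+ over PDGFRA- over GAL1+ held for 33 of the 41 genes (80.5%), against 26.2% of all genes. The exceptions at the top were Cntn2, highest in PDGFRA- cells, Shank3, highest in PDGFRA+ cells, and Cadm1, highest in GAL1+ cells. Between the neighbours GAL1- and PDGFRA+, and between PDGFRA+ and PDGFRA-, no member passed the test described further on, and PDGFRA- was not tested against GAL1+. In bulk libraries, fewer cells of a type and less RNA per cell cannot be told apart.

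**Figure D1:**
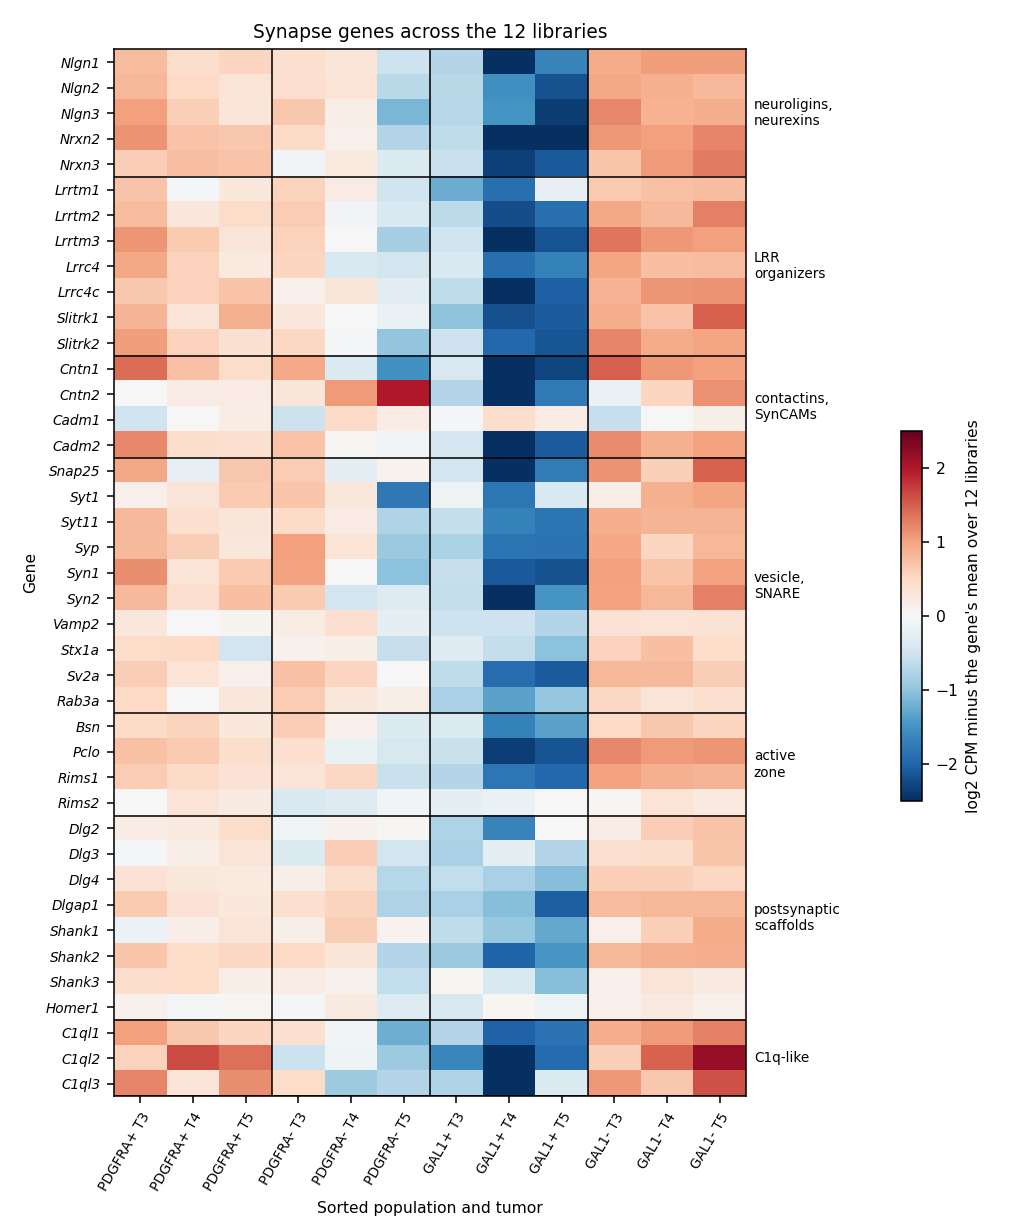
Each row is 1 of the 41 synapse genes and each column 1 library, by population and tumor. Color gives log2 CPM minus the mean of that gene over the 12 libraries. The GAL1+ columns are low in most rows, and the PDGFRA- library of T5 is below every PDGFRA+ and GAL1- library for 36 genes.

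In the GAL1 sort, 38 of the 41 genes were higher in GAL1- than in GAL1+ cells and 0 were lower (limma with tumors as a block; a call is a Benjamini-Hochberg adjusted p under 0.05, adjusted across every gene tested). Of all genes tested, 29.3% were called higher and 28.9% lower in this comparison. The median log2 fold change of the 41 genes was 2.34, against 0.03 for all genes, and the sign was positive in every tumor for 40 genes. The smallest of the 3 GAL1- values was above the largest of the 3 GAL1+ values for 40 genes, all but Cadm1, and 30.5% of all genes had groups apart in this way. The highest differences belonged to C1ql2 (3.52 ± 0.45 SE, adjusted p = 0.000167), Nrxn2 (3.02 ± 0.36 SE, adjusted p = 0.000118) and Cadm2 (2.97 ± 0.40 SE, adjusted p = 0.000212), and the lowest among genes called to Rims2 (0.35 ± 0.11 SE, adjusted p = 0.0189), Shank3 (0.70 ± 0.21 SE, adjusted p = 0.0154) and Vamp2 (0.94 ± 0.14 SE, adjusted p = 0.000445). The calls of 2 of these genes were lost when a tumor was left out. Rims2 was not called without T3, T4 or T5 (adjusted p = 0.0916, 0.162 and 0.0551), and Shank3 was not called without T4 or T5 (adjusted p = 0.0884 and 0.124). Without the tumor block they were not called either (adjusted p = 0.0756 for Rims2 and 0.0617 for Shank3).

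The comparison of PDGFRA+ with GAL1+ cells, which uses the same GAL1+ libraries, called 38 genes higher and 0 lower, with 20.9% of all genes called higher and 17.0% lower. The genes not called were again Cadm1, Syt1 and Homer1. The median log2 fold change was 2.02 over the 41 genes and 0.01 over all genes, and groups were apart for 37 genes, against 23.5% of all genes. C1ql2 (3.29 ± 0.45 SE, adjusted p = 0.00156), Nrxn2 (2.74 ± 0.36 SE, adjusted p = 0.00147) and Cntn1 (2.63 ± 0.37 SE, adjusted p = 0.00168) had the highest values, and Rims2 (0.32 ± 0.11 SE, adjusted p = 0.0416), Vamp2 (0.71 ± 0.14 SE, adjusted p = 0.00600) and Dlg3 (0.74 ± 0.22 SE, adjusted p = 0.0288) the lowest. Of the 38 calls, 30 held without T3, 31 without T4 and 33 without T5. Rims2 was not called without T3, T4 or T5 (adjusted p = 0.157, 0.289 and 0.0986), Dlg3 was not called without T3 or T5 (adjusted p = 0.190 and 0.116), and Vamp2 was not called without T3 (adjusted p = 0.0978). Without the tumor block Rims2 and Dlg3 were not called either (adjusted p = 0.147 and 0.0784).

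**Figure D2:**
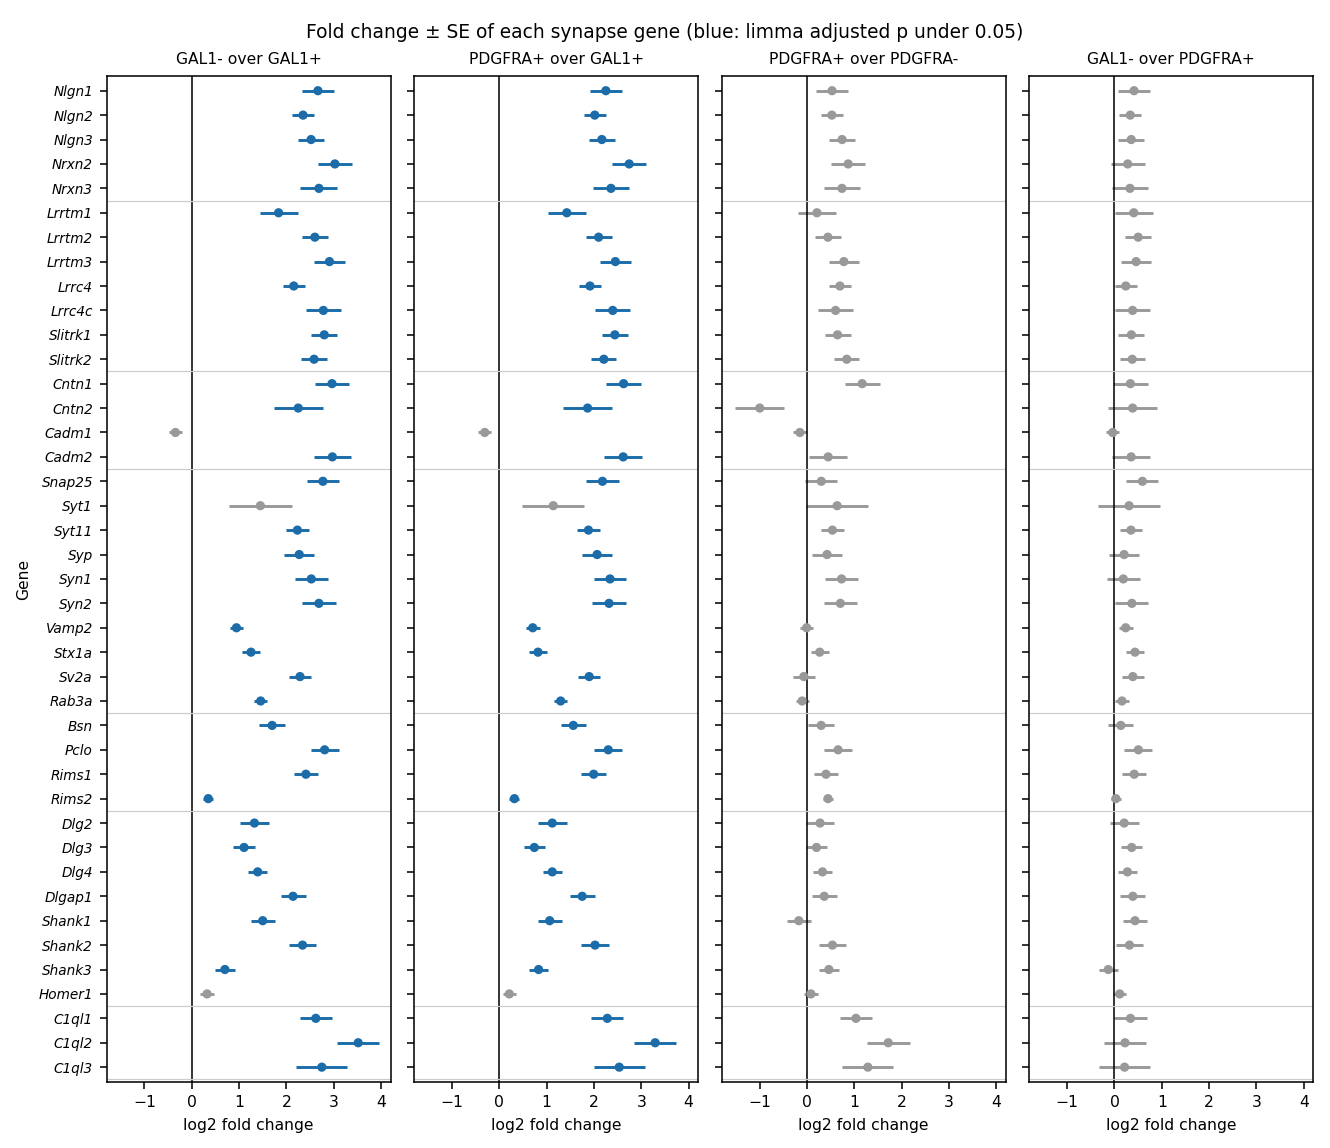
Log2 fold change (horizontal axis) with its standard error for each of the 41 genes in 4 comparisons, with genes grouped by role and blue marking genes with a limma adjusted p under 0.05. In both comparisons with GAL1+ cells 38 genes are blue and lie between 0.32 and 3.52, and in the other 2 panels no gene is blue.

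Neuroligins and neurexins, the partners that bind each other across the synapse, moved together, with 5 of 5 higher in GAL1- than in GAL1+ cells and a range of 2.35 to 3.02 on the log2 scale. Nlgn2, the neuroligin of inhibitory synapses, measured 6.45, 5.61 and 4.97 log2 CPM in GAL1+ cells of T3, T4 and T5, and 8.11, 8.02 and 7.95 in GAL1- cells of the same tumors. Its PDGFRA+ libraries held 7.97, 7.63 and 7.48 and its PDGFRA- libraries 7.56, 7.47 and 6.46. All 3 GAL1- libraries were within 0.2 of one another while the GAL1+ values fell apart by tumor, and the fitted difference was 2.35 ± 0.23 (SE, adjusted p = 5.59e-05). Nrxn3, a presynaptic neurexin, was at 5.21, 3.43 and 3.68 in GAL1+ and 6.47, 6.83 and 7.08 in GAL1- cells, a difference of 2.69 ± 0.39 (SE, adjusted p = 0.000329). Its PDGFRA+ values (6.39, 6.52 and 6.49) all lay above its PDGFRA- values (5.71, 6.02 and 5.44). Nlgn1, found at excitatory synapses, and Nlgn3, whose shed ectodomain is a known growth signal for glioma, differed by 2.67 and 2.52 between GAL1- and GAL1+ cells.

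Leucine-rich repeat organizers, postsynaptic membrane proteins that recruit presynaptic terminals, were called in 7 of 7 cases. Slitrk1, which binds receptor tyrosine phosphatases of the sending cell, had 2.56, 1.37 and 1.48 log2 CPM in GAL1+ and 4.47, 4.28 and 5.06 in GAL1- libraries, with PDGFRA+ (4.41, 3.88 and 4.44) and PDGFRA- (3.82, 3.57 and 3.40) in between. The 4 ranges followed each other with an overlap only between PDGFRA+ and GAL1- values, and GAL1- exceeded GAL1+ by 2.80 ± 0.28 (SE, adjusted p = 5.54e-05). Lrrtm1, a neurexin ligand, was the least certain of this list at 0.75, 0.10 and 1.78 in GAL1+ and 2.65, 2.72 and 2.76 in GAL1- cells (1.83 ± 0.40 SE, adjusted p = 0.00351). Its other libraries held 2.70, 1.95 and 2.26 (PDGFRA+) and 2.58, 2.20 and 1.49 (PDGFRA-), so that only the GAL1+ values of T3 and T4 stood clearly below the rest. Lrrtm2, Lrrtm3, Lrrc4, Lrrc4c and Slitrk2 differed by 2.15 to 2.91 between GAL1- and GAL1+ cells, the highest being Lrrtm3.

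Contactins and SynCAMs, adhesion proteins of the immunoglobulin superfamily, did not form one pattern. Cntn1, a membrane-anchored contactin, measured 8.33, 6.13 and 6.42 log2 CPM in GAL1+ and 10.22, 9.80 and 9.76 in GAL1- cells, a difference of 2.96 ± 0.37 (SE, adjusted p = 0.000147). It also spread widely inside the PDGFRA- group (9.66, 8.37 and 7.22), with its PDGFRA+ values at 10.12, 9.45 and 9.19. Cadm1, or SynCAM 1, went with the tumor rather than with the sort: 6.26, 6.78 and 6.94 in PDGFRA+, 6.22, 7.24 and 6.96 in PDGFRA-, 6.74, 7.20 and 6.97 for GAL1+ libraries and 6.19, 6.77 and 6.92 for GAL1-. Tumor took 71.8% of its sum of squares and population 15.6%, where the medians over the 41 genes were 11.01% and 79.3%. Its difference of GAL1- from GAL1+ was -0.35 (95% interval -0.66 to -0.03, adjusted p = 0.0587), and with each library centred on its own median it was called lower at -0.39 (adjusted p = 0.0267). Its paralog Cadm2 differed by 2.97 between the same groups.

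Cntn2, a contactin of myelinated axons that oligodendrocytes also make, was the one member with its highest mean in PDGFRA- cells, at 2.47, 3.24 and 4.17 log2 CPM against 2.16, 2.36 and 2.38 in PDGFRA+ cells. Every PDGFRA- value was above every PDGFRA+ value, and the fitted difference of PDGFRA+ from PDGFRA- was -0.996 ± 0.51 (SE, adjusted p = 0.483). The mature oligodendrocyte markers were lower in PDGFRA+ than in PDGFRA- cells in each tumor for 8 of 8 genes, with a median log2 fold change of -1.84 and 0 called, and Mog rose to 3.20 log2 CPM in the PDGFRA- library of T5. Their part in the Cntn2 values was not tested. In GAL1- over GAL1+ cells Cntn2 was called at 2.25, but not without T5 (1.92, adjusted p = 0.0619).

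The synaptic vesicle and SNARE genes were called in 9 of 10 cases in GAL1- over GAL1+ cells, from 0.94 for Vamp2 to 2.77 for Snap25. Rab3a, the small GTPase of the vesicle surface, had the lowest unadjusted p of all in this list, with 2.85, 2.31 and 2.68 log2 CPM in GAL1+ and 4.18, 3.98 and 4.05 in GAL1- cells (1.46 ± 0.14 SE, adjusted p = 5.07e-05). Its PDGFRA+ (4.15, 3.65 and 3.93) and PDGFRA- (4.29, 3.92 and 3.83) values covered the same range, so only the GAL1+ libraries were low. Syt1, the calcium sensor of fast release, was close to the limit of detection at 0.48, -1.19 and 0.23 in GAL1+ and 0.77, 1.50 and 1.59 in GAL1- cells. Its difference of 1.45 was not called (95% interval -0.03 to 2.93, adjusted p = 0.0852). Its PDGFRA+ libraries were even (0.74, 0.93 and 1.26), and among its PDGFRA- libraries T5 was far below the others (1.31, 0.88 and -1.18), and without that 1 library Syt1 was called in the GAL1 sort (adjusted p = 0.0154).

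Within this list the fitted values of the SNARE genes were not alike in size. Snap25 of the plasma membrane differed by 2.77 ± 0.34 (SE), its partner syntaxin gene Stx1a by 1.25 ± 0.19 (SE) and the vesicle SNARE Vamp2 by 0.94 ± 0.14 (SE). Snap25 stood on 7 reads in the GAL1+ library of T4. The vesicle coat proteins Syn1 and Syn2 (2.53 and 2.69), the vesicle membrane proteins Syp and Sv2a (2.27 and 2.29) and Syt11, a synaptotagmin that does not bind calcium (2.23), fell in a narrow band. Differences between genes of this list were not tested against each other.

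Active zone genes were called in 4 of 4 cases, but with very different sizes. Pclo, the giant scaffold piccolo, was at 5.51, 3.70 and 3.90 log2 CPM in GAL1+ and 7.26, 7.11 and 7.16 in GAL1- cells (2.81 ± 0.30 SE, adjusted p = 6.96e-05), and stood at 6.80, 6.72 and 6.50 in PDGFRA+ and 6.48, 5.90 and 5.66 in PDGFRA- cells. No value of one population touched that of another for Pclo, and its bassoon partner Bsn and the release-site scaffold Rims1 differed by 1.70 and 2.41. Rims2, the paralog of Rims1, was nearly level instead: 6.01, 6.07 and 6.23 in GAL1+, 6.29, 6.57 and 6.49 in GAL1-, 6.22, 6.58 and 6.46 in PDGFRA+, and 5.85, 5.92 and 6.16 in PDGFRA- cells. It was the one member with its lowest mean in PDGFRA- cells.

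Postsynaptic scaffolds, which hold receptors under the membrane, changed least as a list, with 7 of 8 called higher and a median log2 fold change of 1.36 in GAL1- over GAL1+ cells. Shank2 led by its p at 3.09, 2.02 and 2.57 log2 CPM in GAL1+ and 4.86, 4.90 and 4.94 in GAL1- cells (2.34 ± 0.29 SE, adjusted p = 0.000138), with 4.72, 4.48 and 4.55 in PDGFRA+ and 4.51, 4.32 and 3.29 in PDGFRA- cells. The 3 Shank genes differed in size, with 1.50 ± 0.25 (SE) for Shank1 and 0.70 ± 0.21 (SE) for Shank3. The membrane-associated guanylate kinases Dlg2, Dlg3 and Dlg4, the last encoding PSD-95, lay between 1.10 and 1.39, and Dlgap1, which links them to Shank proteins, at 2.14. Homer1, which ties Shank to metabotropic glutamate receptors, was flat at 5.84, 6.29 and 6.12 in GAL1+ and 6.38, 6.47 and 6.37 in GAL1- cells. Its groups were apart but by little, and the difference of 0.32 was not called (95% interval 0.000326 to 0.644, adjusted p = 0.0794). It was called with quantile normalization (adjusted p = 0.0209) and without the PDGFRA- library of T5 (adjusted p = 0.0424). Its PDGFRA+ (6.36, 6.23 and 6.30) and PDGFRA- (6.22, 6.48 and 5.93) values lay in the same range.

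The secreted C1q-like genes, whose products bridge the cleft by binding adhesion G protein-coupled receptors, were called in 3 of 3 cases and had the highest list median, 2.75. C1ql2 was at -0.11, -1.19 and -0.38 log2 CPM for GAL1+, 0.99, 1.43 and 0.62 for PDGFRA-, 2.11, 3.17 and 2.91 for PDGFRA+, and 2.14, 3.01 and 3.71 for GAL1- libraries. The GAL1+ values lay below the PDGFRA- values and these below all others, with an overlap only between PDGFRA+ and GAL1-, but the GAL1+ values of T4 and T5 stood on 5 and 9 reads. C1ql3 was the noisiest of them at 2.75, -0.26 and 3.18 in GAL1+ and 4.61, 4.19 and 5.11 in GAL1- cells (2.75 ± 0.54 SE, adjusted p = 0.00190), with 4.74, 3.84 and 4.69 in PDGFRA+ and 3.99, 2.63 and 2.79 in PDGFRA- cells. C1ql1, a ligand of climbing fiber synapses that progenitor cells also make, differed by 2.62 ± 0.34 (SE, adjusted p = 0.000177).

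**Figure D3:**
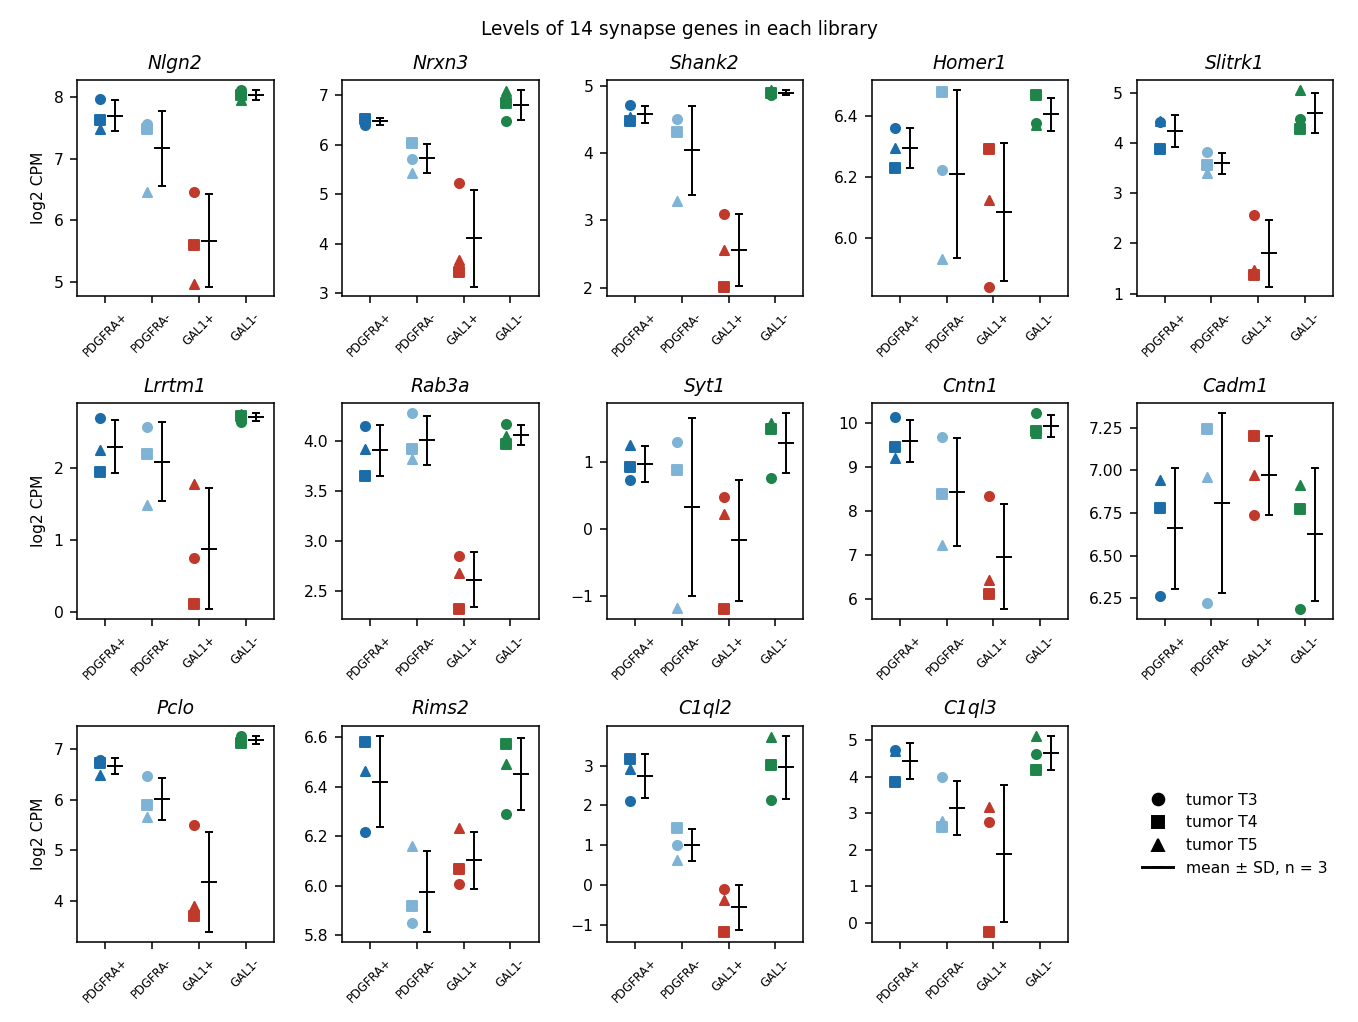
Log2 CPM (vertical axis, scaled for each gene) of the 14 genes given by library, by population, with 1 marker shape for each tumor and the mean ± SD of 3 libraries beside them. The GAL1+ libraries are lowest for most genes, whereas Homer1, Cadm1 and Rims2 span less than 1.1 log2 units over all 12 libraries.

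The RefSeq table of the GRCm38.p6 build held promoter windows, from 250 bases before to 50 after a start site, for 32 of the 42 genes, among them Cntnap2. They were searched on both strands for letters of the RE1 element, through which the repressor REST keeps neuronal genes silent in other cells, for E-boxes and for the SOX core. The first block of RE1, TCAGCACC, was in windows of 2 of the 32 genes (6.25%) and of 1.85% of all genes in the table, and its second block, GGACAGC, in 0 of 32 against 7.59%. The E-box CAGCTG was in 10 of 32 (31.2%, against 18.3%), the E-box CATCTG in 6 (18.8%, against 19.2%), and ACAATG and ACAATA in 4 and 2 genes (12.5% and 6.25%, against 14.3% and 10.5%). The median GC content was 58.7% in these windows and 52.8% over all genes. Stretches before the start site of the 2 genes with the RE1 block, both high in GAL1- cells, and of 2 genes with the E-box CAGCTG, of which Stx1a was called and Homer1 was not, read as follows on the strand of the gene, with the motif in capitals.
Syn1 (chrX:20921107-20921168, minus strand): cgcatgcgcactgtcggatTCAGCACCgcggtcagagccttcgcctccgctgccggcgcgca
Nlgn1 (chr3:26154096-26154173, minus strand): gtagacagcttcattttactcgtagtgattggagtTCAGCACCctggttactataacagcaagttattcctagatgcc
Stx1a (chr5:135023414-135023481, plus strand): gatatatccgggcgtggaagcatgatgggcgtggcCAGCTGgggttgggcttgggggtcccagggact
Homer1 (chr13:93307784-93307841, plus strand): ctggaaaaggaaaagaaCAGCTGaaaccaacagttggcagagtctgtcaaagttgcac
Rest itself measured 6.64, 6.96 and 7.02 log2 CPM in GAL1+ and 5.85, 6.01 and 5.71 in GAL1- cells, and no binding was measured, so these matches describe letters only.

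In the PDGFRA sort, none of the 41 genes was called, and none of all genes was (0% called in either direction). At an unadjusted p under 0.05, 13 of the 41 genes were higher in PDGFRA+ than in PDGFRA- cells and 0 lower, against 6.02% and 5.74% of all genes. The median log2 fold change was 0.46 over the 41 genes and -0.02 over all genes, and groups were apart with PDGFRA+ higher for 10 genes, against 3.51% of all genes. The lowest unadjusted p values belonged to Rims2 (0.45 ± 0.11 SE, adjusted p = 0.227), C1ql2 (1.72 ± 0.45 SE, adjusted p = 0.254) and Cntn1 (1.17 ± 0.37 SE, adjusted p = 0.306). The C1q-like genes had the highest median of the role lists, 1.29, with values of 1.04 to 1.72.

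The difference in the PDGFRA sort was uneven between tumors. The median over the 41 genes reached 0.95 for T5, against 0.32 for T3 and 0.28 for T4, and 34, 29 and 39 genes were higher in the PDGFRA+ library of the respective tumor. The PDGFRA- library of T5 was below every PDGFRA+ and GAL1- library for 36 of the 41 genes (34.6% of all genes) and within the range of the GAL1+ libraries for 20 (48.8%, against 49.9% of all genes). Without that library the median fell to 0.24. Its pan-leukocyte median was 7.87 log2 CPM, the highest of the 3 PDGFRA- libraries, which started at 5.55. The leukocyte content of this library as a part of the difference was not tested.

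Between GAL1- and PDGFRA+ cells, which share no library but come from the same tumors, none of the 41 genes was called higher or lower, with 0.0110% of all genes called higher and 8.26% lower. The median log2 fold change was 0.34, with 31, 36 and 40 genes higher in GAL1- cells of T3, T4 and T5, and 1 gene (Stx1a, 0.43 ± 0.19 SE, adjusted p = 0.271) had an unadjusted p under 0.05 with a higher value, against 1.85% of all genes. The upper end of the 95% interval was under 1, a doubling, for 23 of the 41 genes, and it reached 1.79 for Syt1. When only these 6 libraries were fitted, which lets the spread of the GAL1- and PDGFRA+ libraries alone set the error, 16 genes were called higher, at 0.27 to 0.51, and that fit called 5.51% of all genes higher and 13.1% lower. Pclo (0.51, adjusted p = 0.00542) and Rims1 (0.42, adjusted p = 0.0176) had the smallest adjusted p values there.

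The spread between tumors differed by population. For the 41 genes the median SD over 3 libraries was 0.15 for GAL1-, 0.25 for PDGFRA+, 0.55 for PDGFRA- and 0.79 for GAL1+ libraries, against 0.22, 0.25, 0.45 and 0.32 for all genes. The 3 GAL1- libraries lay within 1 log2 unit of each other for 39 genes (95.1%, against 82.1% of all genes), and the 3 GAL1+ libraries for 9 (22%, against 72% of all genes). In GAL1+ cells T3 was the highest of the 3 tumors for 34 of the 41 genes (39.8% of all genes). The median difference of GAL1- from GAL1+ was accordingly smallest in T3, at 1.59, and 2.69 in T4 and 2.72 in T5.

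Genes of other cell types also differed between the sorted populations. All 12 pan-leukocyte, all 10 microglia and all 8 macrophage genes were called lower in GAL1- than in GAL1+ cells (28.9% of all genes). Their medians were -4.74, -4.61 and -5.81. Also called lower were 8 of 8 endothelial and 5 of 5 pericyte genes (medians -2.69 and -2.70). The summed level of the pan-leukocyte genes was 11.76 to 12.28 on the log2 CPM scale in GAL1+, 9.69 to 11.91 in PDGFRA-, 9.60 to 10.87 in PDGFRA+ and 6.50 to 7.93 in GAL1- libraries. The T and NK cell genes were called in 0 of 5 cases. In PDGFRA+ over GAL1+ cells, 12 of 12 pan-leukocyte, 8 of 8 macrophage and 5 of 10 microglia genes were called lower (17.0% of all genes). No endothelial or pericyte gene was called there. In GAL1- over PDGFRA+ cells none of the 41 genes was called in the main fit, while 39 had a positive fold change (median 0.34). When only the libraries of the 2 groups compared were fitted, 16 were called higher (5.51% of all genes). In the main fit of that comparison 12 of 12 pan-leukocyte, 8 of 8 endothelial and 4 of 5 pericyte genes were called lower (8.26% of all genes). So were 9 of 10 microglia and 7 of 8 macrophage genes. Values are relative to library sizes that the authors scaled by TMM, a normalization between libraries, and are not amounts of RNA per cell. The part of leukocyte RNA in the differences of the synapse genes was not tested.

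Most markers of the oligodendrocyte lineage, and some of astrocytes, were higher in GAL1- than in GAL1+ cells. All 11 oligodendrocyte progenitor markers were called higher in GAL1- than in GAL1+ cells (29.3% of all genes). Their median was 2.92, with a range of 1.73 (Cspg4) to 3.21 (Gpr17). All 11 were also called higher in PDGFRA+ than in GAL1+ cells (20.9% of all genes), with a median of 2.43. Pdgfra is among the 11, and the PDGFRA+ cells were sorted on its protein. Of the mature oligodendrocyte markers 7 of 8 were called higher in GAL1- than in GAL1+ cells (29.3% of all genes), with a median of 1.26. Of the astrocyte markers 3 of 6 were called higher there (29.3% of all genes). Their median was 1.10, with a range of 0.13 (Aldh1l1) to 2.54 (Slc1a2). Only 3 of the 6 were higher in GAL1- cells of every tumor. In each library the median of the 41 synapse genes was set against that of the 10 progenitor markers other than Pdgfra. It lay 2.89 to 3.28 log2 units below them in the 9 PDGFRA+, PDGFRA- and GAL1- libraries, and 2.73, 2.58 and 1.84 below them in the GAL1+ libraries of T3, T4 and T5.

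Neuron markers were mixed. Of the 10 measured, 6 had a positive and 4 a negative fold change in GAL1- over GAL1+ cells. The median was 0.72 and the lowest value -1.27 (Camk2a). Called higher were 4 (40%, against 29.3% of all genes), and 1 was called lower (Thy1, -0.78, against 28.9% of all genes). Gad1 (2.29 ± 0.32 SE, adjusted p = 0.000289), which makes the transmitter GABA, and the tubulin gene Tubb3 (1.78 ± 0.28 SE, adjusted p = 0.000522) were called higher. So were the neurofilament genes Nefm (2.18 ± 0.58 SE, adjusted p = 0.00940) and Nefl (1.71 ± 0.60 SE, adjusted p = 0.0325). Gad1 was at 2.45, 2.08 and 1.01 log2 CPM in GAL1+ and 3.86, 4.57 and 3.97 in GAL1- libraries. Nefl stood on 2 reads in the GAL1+ library of T4, so its fitted value depends on the offset. Rbfox3, which encodes the neuronal nuclear protein NeuN, lay between -1.63 and -0.54 log2 CPM in GAL1- libraries, and differed from GAL1+ by -0.13 (adjusted p = 0.915). Slc17a7, the vesicular glutamate transporter of excitatory neurons, was at 0.27, -1.88 and -2.04 in GAL1- cells. The part of neuronal RNA in the differences of the synapse genes was not tested.

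**Figure D4:**
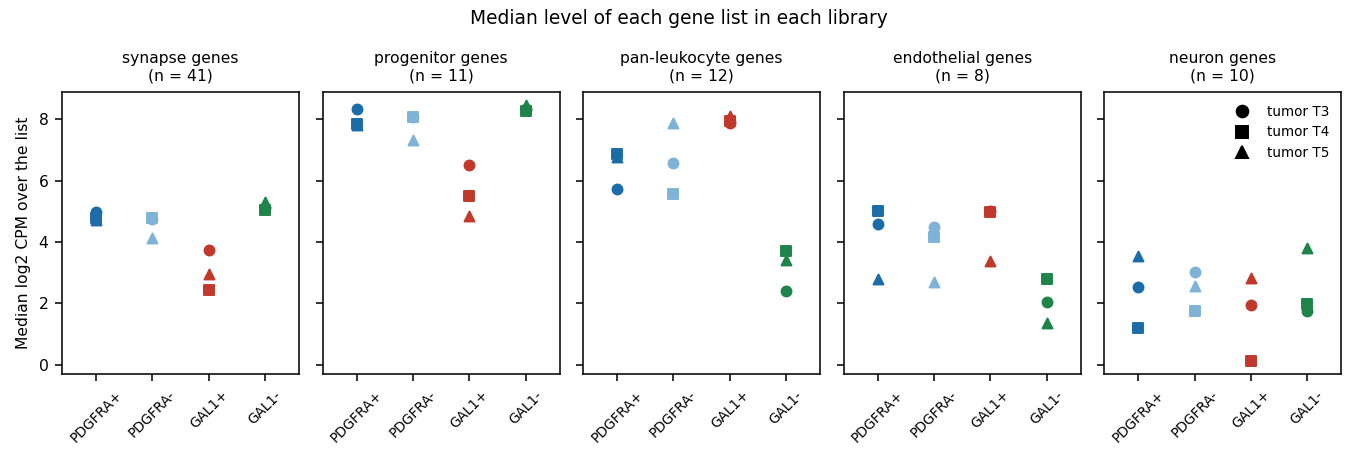
Median log2 CPM (vertical axis) over the genes of each list in each library, by population, with 1 marker shape for each tumor. The synapse genes run from 2.45 to 3.75 in GAL1+ and 5.05 to 5.32 in GAL1- libraries, progenitor markers are also lowest in GAL1+ libraries, and pan-leukocyte genes are lowest in GAL1- libraries.

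A wider set of synapse genes, with 92 of 104 measured, was less uniform. In GAL1- over GAL1+ cells 61 were called higher (66.3%, against 29.3% of all genes) and 8 lower (28.9% of all genes). The median log2 fold change was 1.45. In PDGFRA+ over GAL1+ cells 52 were called higher (56.5%, against 20.9% of all genes) and 4 lower (17.0% of all genes), with a median of 1.23. By list, 21 of 31 adhesion genes, 27 of 40 vesicle and active zone genes and 13 of 21 scaffold genes were higher in GAL1- cells. The highest in GAL1- over GAL1+ were Rab3c (3.35 ± 0.93 SE, adjusted p = 0.0120), a relative of Rab3a, and Snap91 (2.88 ± 0.34 SE, adjusted p = 0.000106), an adaptor of vesicle uptake, and the lowest Ppfia4 (-3.57 ± 0.50 SE, adjusted p = 0.000262), a liprin, and Rab3d (-1.72 ± 0.26 SE, adjusted p = 0.000434), a Rab of secretory granules. Rab3c stood under the floor of 3 reads in GAL1+ cells of T3 and T4, at -2.59 and -4.65. In PDGFRA+ over GAL1+ the highest called were Snap91 (2.50) and Cntn4 (2.49), and the lowest Rab3d (-1.16) and Syngr1 (-0.63). Ppfia4 was at 5.35, 6.48 and 5.96 log2 CPM in GAL1+ and 1.84, 2.81 and 2.42 in GAL1- libraries, while every Rab3a value in GAL1- cells lay above its GAL1+ values.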

How the data were processed

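RNA of 12 sorted populations (4 for each of 3 tumors) was sequenced by the study from stranded total RNA libraries. Per the submitters' processing notes and the study's methods, the authors trimmed reads with fastp, aligned them to mm39 with STAR, counted exons with featureCounts (multi-mapping reads as fractions), dropped genes with a low CPM, and applied TMM and voom. Tool versions are not given in the sources used here. What the authors deposited is therefore log2 CPM, with an offset of 0.5. Near-identical paralogs could share fractional reads. A further allele shared by all the mice is not reported here.

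All 18180 genes and all 12 libraries entered 1 limma fit (version 3.58.1, R 4.3.3) of population with tumor as a block, with a moderated test, a mean-variance trend, and Benjamini-Hochberg adjustment over all genes; an adjusted p under 0.05 was a call. Intervals at 95% use 6 residual and 3.49 prior degrees of freedom. The block follows from the tumor of origin: deviations of libraries from their population means correlated by 0.14 to 0.66 (mean 0.486) over the 18 pairs from the same tumor. The 3 tumors are the replicates. Reads were recovered from the lowest value of each library, and 41.3% to 59.2% of values were whole within 0.01 read, so no count test was the main result; 3 reads were taken as the floor, which covers counting error only. The fit was also run on simulated data with the same spread in every population. It therefore cannot check the calls under the unequal spread of these libraries. Figures were drawn with matplotlib 3.10.9.

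The members and gene lists were chosen with earlier results of these data known. Values by library are given for the member with the lowest and the one with the highest unadjusted p in GAL1- over GAL1+ in each of 7 role lists, and Cntn2 was added after its values were seen. Fold changes are given in full for the 3 highest and 3 lowest calls. Of the wider lists, the 2 highest and 2 lowest calls in each comparison with GAL1+ are named. Comparisons share libraries (GAL1+ in 2 of them), so they are not independent.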

Additional observations from a re-analysis of the deposited data

How the results depend on the processing

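The 76 called fold changes of the members (38 in each comparison with GAL1+) were refitted under 13 alternatives, 988 refits in all; 950 stayed called, 38 lost the call and 0 changed direction. Calls were lost by 3 genes in GAL1- over GAL1+ (Cntn2, Rims2 and Shank3) and by 11 in PDGFRA+ over GAL1+ (the same 3 and C1ql3, Dlg2, Dlg3, Dlg4, Lrrtm1, Shank1, Stx1a and Vamp2); the cause was not tested. With each library centred on its median, 1 member, Cadm1, was called lower in GAL1- over GAL1+ and 1, also Cadm1, in PDGFRA+ over GAL1+. That centring moved the median of all genes in PDGFRA+ over GAL1+ from 0.01 to -0.15 and the share of calls that were higher from 55.1% to 40.8%; relative to it the members kept positive values, except Cadm1.

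Without the replicate block, that is without the pairing by tumor, 3154 genes were called in PDGFRA+ over GAL1+ in place of 6900, and 612 in GAL1- over PDGFRA+ in place of 1504, while 36 and 34 members stayed called in GAL1- over GAL1+ and PDGFRA+ over GAL1+. With only the libraries of the groups compared, 3386 genes and 16 members were called in GAL1- over PDGFRA+, where the residual spread comes from fewer samples. Leaving out 1 tumor gave 2110 to 4863 genes in PDGFRA+ over GAL1+ and 0 to 1126 in GAL1- over PDGFRA+ (0 without T3); without the PDGFRA- library of T5 alone these were 7677 and 1886. The members called higher ranged from 35 to 37 in GAL1- over GAL1+ and from 30 to 33 in PDGFRA+ over GAL1+ when a tumor was left out, and were 40 and 38 without the PDGFRA- library of T5, which is in neither comparison but adds to the shared error. In the PDGFRA sort no gene was called under any alternative; 2137 genes had an unadjusted p under 0.05. Syt1, Snap25, Cntn2 and C1ql2 are limited by depth.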

Other observations

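Some synapse genes outside the 42 followed the tumor more than the sort; they were picked after their values were seen. Flrt2, an adhesion protein that binds latrophilins, was at 7.24, 5.55, 5.32 and 7.64 log2 CPM in the PDGFRA+, PDGFRA-, GAL1+ and GAL1- libraries of T5, and between 2.01 and 4.34 in the other 8 libraries. Tumor took 80.9% of its sum of squares and population 13.3%. Tenm1, a teneurin, reached 3.43, 2.38 and 2.04 in the PDGFRA-, GAL1+ and GAL1- libraries of T4 but 0.27 in its PDGFRA+ library, and was at most 0.15 in the other tumors (tumor 72.4%, population 7.78%). Dlgap4, a scaffold relative of Dlgap1, had 76.4% and 6.30%, with a range of 6.92 to 7.97. Among the 41 members only Cadm1 had more than 70% of its sum of squares with the tumor. The neuron markers Nefl and Gad2 were also highest in T5: Gad2 was at 3.42, 1.00, 2.29 and 3.64 in the PDGFRA+, PDGFRA-, GAL1+ and GAL1- libraries of T5 and at most 0.35 in the other tumors.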
